A study of Mus musculus with 16 samples.

Results

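Epidermal keratinocytes of transgenic mice, labelled as expressing progerin and lamin A, were compared with those of genotype-negative littermates on postnatal day 24. The comparison held 8 of the 16 arrays of the series and 15830 genes. The 4 HGPS mice (2 females and 2 males) were K5tTA+; tetop-LA G608G+ and belonged to line VF1-07 on an FVB/N background, whose responder transgene also holds EGFP. The 4 wild-type littermates (2 females and 2 males) were K5tTA-; tetop-LA G608G- and were labelled FVB/NCrl. All of these mice were exposed before birth to 100 µg/ml doxycycline in water with 2.5% sucrose, given to the mother, and the drug was withdrawn at birth. A second set of 4 HGPS mice (all male) and 4 wild-type littermates (1 female and 3 males), killed on day 35, served as a separate set of animals in which to look up the day 24 genes. RNA from the trypsin-released epidermis was hybridised to exon arrays, 1 array per mouse, so every value below is a relative signal on the log2 scale, where a difference of 1 is a doubling.

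Lamin A is a filament protein of the nuclear lamina, the mesh under the inner nuclear membrane that anchors chromatin. It is made as prelamin A, which is farnesylated and then cleaved by the protease Zmpste24. The G608G mutation of Hutchinson-Gilford progeria syndrome (HGPS) opens a cryptic splice site in the lamin A message, and the shortened product, progerin, keeps its farnesyl group. In these mice the human lamin A minigene stood behind a tetracycline operator and was switched on, once doxycycline was withdrawn, by a transactivator under the keratin 5 promoter, which is active in basal keratinocytes and in the outer cells of the hair follicle. Follicles of mice of this age enter a new growth phase (anagen), during which hair keratins are strongly made. The HGPS mice came from 1 transgenic line and carried both transgenes, while the littermates carried neither. The labels name lamin A beside progerin as a product in the HGPS mice. Effects of progerin, lamin A, EGFP, the transactivator and the chromosome segments that hold the transgenes cannot be told apart in these groups.

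The difference between the genotypes on day 24 was small for most genes and large for a few. After Benjamini-Hochberg adjustment over all genes in limma, 8 of 15830 genes (0.0505%) differed at an adjusted p under 0.05, 1 higher and 7 lower in HGPS. Armc1 was higher, and Mtfr1, Pde7a, Hps3, Tbl1xr1, Ect2, Gpc3 and H19 were lower. Of these, 6 lie on chromosome 3, 1 on chromosome 7 and 1 on the X chromosome. The median size of the difference over all genes was 0.067 on day 24 and 0.158 on day 35. A size of at least 1 was reached by 24 genes on day 24, of which 5 passed the test, and by 845 genes on day 35. At an unadjusted p under 0.05 there were 1140 genes (7.2%), of which 467 (2.95%) were higher and 673 (4.25%) lower in HGPS. The 4 HGPS values did not overlap the 4 wild-type values for 879 genes (5.55%). In the day 35 mice tested alone, 28.4% of genes passed the adjusted threshold, and the difference itself changed between the ages for 24.3%. With mice of the same replicate number treated as a block, 19 genes passed in place of 8, and all 8 remained among them.

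The arrays were alike in scale, with medians of 4.38 to 4.45, and they correlated at 0.919 or more. Sex was balanced between the genotypes on day 24, and 466 genes (2.94%) differed between the sexes in these 8 mice, 291 of them higher in males. Of the mouse identification prefixes in the labels, E949 was carried by 3 HGPS mice and 1 wild-type mouse and E952 by 1 HGPS mouse and 3 wild-type mice. What the prefixes stand for was not given. The labels do not say whether the mice came from separate litters. In the fit reported, p-values measure the spread between mice within the groups of both ages, not of the day 24 mice alone.

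Lmna, the gene for lamins A and C, measured 9.14, 9.36, 9.33 and 9.4 in HGPS and 9.12, 9.07, 8.9 and 9.26 in wild-type. The groups overlapped slightly, since HGPS replicate 1 fell between wild-type values. The difference of 0.22 ± 0.08 (SE) did not pass the test (adjusted p = 0.512), with an exact two-sided permutation p of 0.0571, while on day 35 it was 0.31 and the groups were apart. Whether the mouse probes detect the human minigene was not given. Of the 15 Lmna probe sets (short groups of probes within exons), 13 had differences above 0, none passed the test, and 3 had groups that did not overlap, all higher in HGPS. These probe sets read 1 gene and are not independent. The share without overlap was computed for gene means only (5.55%) and is not a like measure for single probe sets. The widest of the 3 Lmna probe sets (4817758) measured 3.92, 4.75, 4.1 and 4 in HGPS and 3.45, 3.46, 3.25 and 3.49 in wild-type. These values lay near the lower end of the scale, whose minimum was 2.29, and the same probe set of Lmna differed by 3.05 on day 35. Krt5, the gene whose promoter drove the transactivator, differed by 0.1 (limma adjusted p = 0.885) and Krt14, its partner in the basal keratin filament, by 0.23 (limma adjusted p = 0.532). The Krt14 groups did not overlap (exact two-sided permutation p = 0.0286), while those of Krt5 did (0.0571 in the same test). On day 35 Krt14 differed by -0.14 with overlapping groups.

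Armc1, which encodes an armadillo repeat protein of the mitochondrial outer membrane, was the only gene that rose. Its signal was 10.07, 10.08, 10.74 and 10.36 in HGPS against 7.21, 7.31, 7.89 and 7.87 in wild-type. Every HGPS mouse lay far above every wild-type mouse. The difference was 2.74 ± 0.19 (SE), or 6.69-fold (adjusted p = 6.58e-06), and it was 2.82 in females and 2.67 in males. Within prefix E949 it was 2.49 and within E952 it was 2.62. On day 35 the HGPS mice had 11.01, 10.93, 10.78 and 10.74 and the wild-type mice 7.05, 6.6, 7.29 and 6.81, a difference of 3.93. That increase over day 24, of 1.19, passed the test of the ages (adjusted p = 0.00494).

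The rise did not run through the whole Armc1 transcript. Of its 8 probe sets, 6 were higher in HGPS by 3.69 to 5.39, and all 6 passed the test over 179614 probe sets, of which 46 (0.0256%) did. The other 2 Armc1 probe sets went the other way: 4747182 averaged 5.39 ± 0.81 in HGPS and 7.61 ± 0.47 in wild-type (SD, n = 4 each), and 5092648 averaged 6.14 ± 0.62 and 8.04 ± 0.31 in the same order. Their groups did not overlap, but neither passed the test (limma adjusted p = 0.067 and 0.070 in that order). All 8 Armc1 probe sets had the same sign on day 35. There the 2 lower ones differed by only -0.47 and -0.68, with overlapping groups (limma adjusted p = 0.435 and 0.165). The exon positions of these probe sets were not used here.

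Mtfr1 and Pde7a are the next measured genes after Armc1 along chromosome 3, and both fell. Mtfr1, a regulator of mitochondrial fission, had 6.07, 6.24, 6.57 and 6.57 in HGPS and 7.86, 7.75, 8.09 and 7.76 in wild-type. No HGPS value reached the lowest wild-type one, and the difference was -1.5 ± 0.15 (SE), 2.83-fold lower (adjusted p = 0.000224). All 8 Mtfr1 probe sets were lower, with differences of -1.99 to -1.03, and 4 of them passed the test. The Mtfr1 difference narrowed to -0.69 on day 35, a change between the ages of 0.81 (adjusted p = 0.0105). Pde7a, a phosphodiesterase that breaks down cyclic AMP, had 5.19, 5.14, 5.13 and 5.21 in HGPS and 5.92, 5.99, 6.14 and 5.99 in wild-type. Both groups were tight and far apart, with a difference of -0.84 ± 0.11 (SE, adjusted p = 0.00346) that was -0.71 on day 35.

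Hps3, Tbl1xr1 and Ect2 follow further along the same chromosome. Hps3 encodes a subunit of BLOC-2, a complex that carries cargo to melanosomes and other lysosome-related organelles. Its signal was 4.36, 4.28, 4.44 and 4.32 in HGPS and 5.11, 5.12, 5.45 and 5.27 in wild-type. The groups were apart, with a difference of -0.89 ± 0.09 (SE, adjusted p = 0.000241) and of -1.19 on day 35. Tbl1xr1 is part of the NCoR corepressor complex and also acts with beta-catenin. It measured 7.58, 7.61, 7.61 and 7.63 in HGPS and 8.6, 8.48, 8.6 and 8.44 in wild-type. The 4 HGPS mice were nearly identical for Tbl1xr1, and the difference was -0.93 ± 0.11 (SE, adjusted p = 0.00113), against -0.76 on day 35. Ect2, which is needed for cytokinesis in dividing cells, had 5.45, 5.4, 4.9 and 5.09 in HGPS and 6.42, 6.29, 6.42 and 6.27 in wild-type. Its difference was -1.14 ± 0.15 (SE, adjusted p = 0.00563) and the 2 HGPS males were below the 2 HGPS females. With prefix as a covariate in the 8 mice, Ect2 no longer passed (-1.10, adjusted p = 0.0884). With the median of a gene's probe sets in place of their mean, neither Tbl1xr1 nor Ect2 passed (adjusted p = 0.0955 each).

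**Figure D1:**
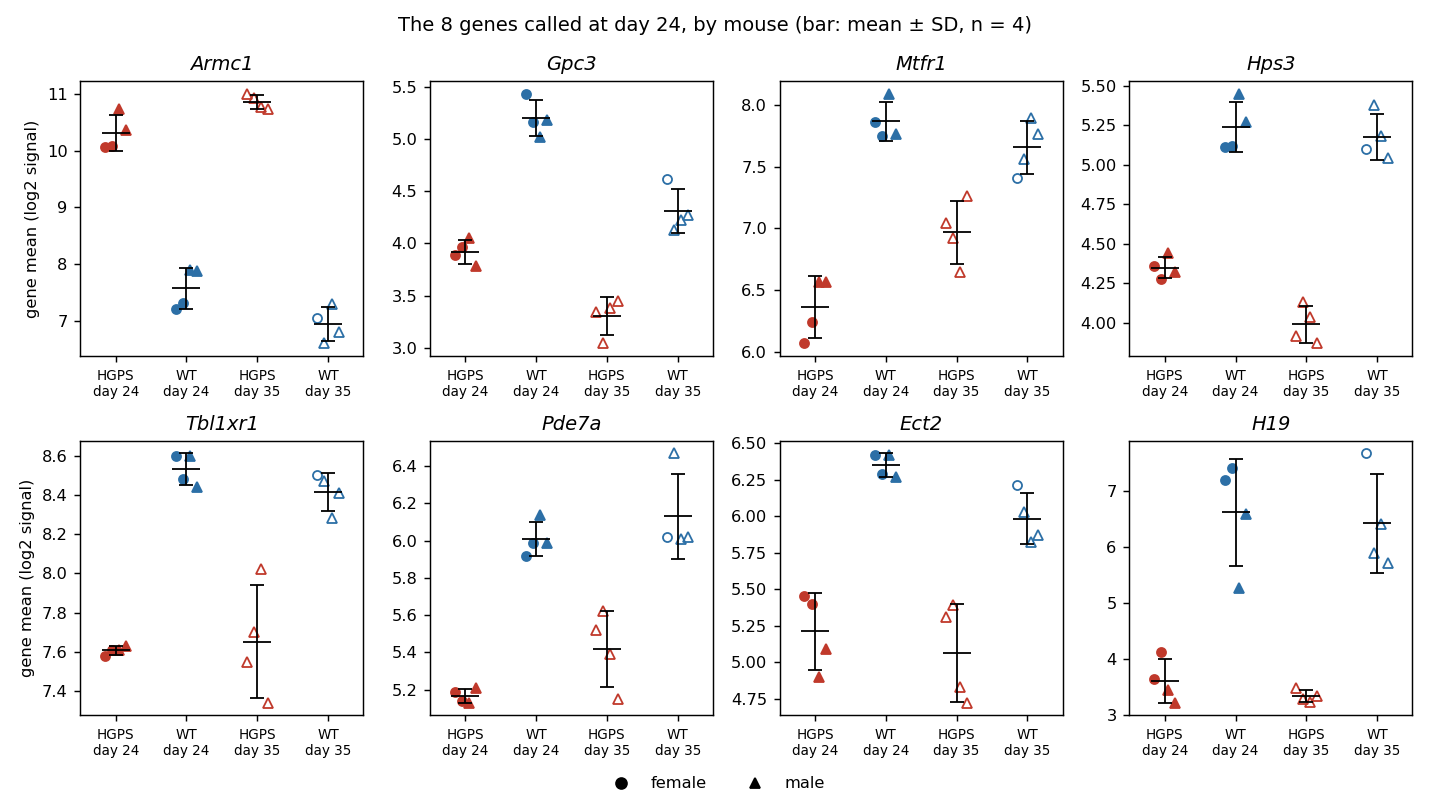
Log2 signal of the 8 genes that passed on day 24, 1 point per mouse (circles female, triangles male), HGPS (red) left of wild-type (WT, blue) at each age, with bars for the mean ± SD of 4 mice. Armc1 sits at 10.07 to 10.74 in HGPS and 7.21 to 7.89 in wild-type on day 24, and the groups of all 8 genes are apart at both ages.

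The sequence just before the start site is shown for 3 of the 4 genes that had an entry among RefSeq promoters (GRCm38.p6), because they fell together and lie within the same stretch of chromosome 3. Each window is the 250 bases before the annotated start, 5′ to 3′ on the gene's strand, and capitals mark matches to a pair of motifs that do not overlap. The first is CCAAT, searched on both strands. The other is CACGTG, which reads the same on both strands. The windows are those of Hps3 (chr3:20035311-20035560, minus strand), Tbl1xr1 (chr3:22076402-22076651, plus strand) and Ect2 (chr3:27153879-27154128, minus strand).
Hps3: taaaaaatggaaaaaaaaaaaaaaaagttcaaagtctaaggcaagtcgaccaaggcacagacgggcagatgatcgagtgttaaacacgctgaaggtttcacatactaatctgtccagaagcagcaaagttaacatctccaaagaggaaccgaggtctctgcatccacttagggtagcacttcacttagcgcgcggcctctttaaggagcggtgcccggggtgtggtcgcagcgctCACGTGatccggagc
Tbl1xr1: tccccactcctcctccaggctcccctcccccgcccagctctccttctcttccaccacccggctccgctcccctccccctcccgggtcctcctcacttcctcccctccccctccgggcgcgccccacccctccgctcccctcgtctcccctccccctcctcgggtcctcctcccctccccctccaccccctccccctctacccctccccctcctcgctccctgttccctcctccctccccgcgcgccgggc
Ect2: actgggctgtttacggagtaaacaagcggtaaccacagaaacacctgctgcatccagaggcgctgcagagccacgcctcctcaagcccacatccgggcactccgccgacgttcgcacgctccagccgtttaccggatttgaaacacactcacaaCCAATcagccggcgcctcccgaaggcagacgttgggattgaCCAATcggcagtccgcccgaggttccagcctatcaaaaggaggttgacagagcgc
Hps3 held 1 CACGTG, a motif found in 6.02% of 32817 such windows, and Ect2 held 2 CCAAT, a motif found in 33.8%. Tbl1xr1 held neither, and C and T made up 85.2% of its window. A match describes letters only.

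The genes around these 6 on chromosome 3 were examined in their RefSeq order, from 10 measured genes before Armc1 to the fifth after Pld1. That stretch held 37 measured genes, the 6 that passed and 31 others. Of the 31 others, 23 had differences below 0, as had 9753 of all 15830 genes, with a median of -0.07 against -0.025 over all genes. At an unadjusted p under 0.05, 7 were lower and 0 higher, against 4.25% lower and 2.95% higher of all genes. The 7 were 4632415L05Rik (-0.22), Hltf (-0.96), Gyg (-0.41), Aadacl1 (-0.37), Fndc3b (-0.42), Pld1 (-0.5) and Arpm1 (-0.26), and none passed after adjustment in the fit reported. Hltf did pass with the replicate block and with sex or prefix as a covariate, and Fndc3b with sex as a covariate and with the median of the probe sets. Hltf, a DNA-dependent ATPase that ubiquitinates PCNA at stalled forks, came closest, averaging 4.17 ± 0.26 in HGPS and 5.13 ± 0.27 in wild-type (SD, n = 4 each, adjusted p = 0.0585). Gyg encodes glycogenin, the primer of glycogen synthesis, and Aadacl1 (now Nceh1) a hydrolase of cholesterol esters. Of these 7, 6 were also below 0 on day 35. Crh (-0.08), Nlgn1 (0.03) and Spata16 (0.00) lie between genes that fell. Their means ran from 3.08 to 3.69 over both genotypes, near the lower end of the scale. A gene at that level has little room to fall, so these genes cannot show whether the decrease was continuous. Cyp7b1, directly before Armc1, differed by 0.02 and has the same limit, at 3.26 in HGPS and 3.24 in wild-type. Slc2a2, directly after Pld1, differed by -0.01 (4.12 and 4.13 in that order). Ythdf3, further before Armc1, averaged 8.52 in HGPS and 8.4 in wild-type and did not fall on day 24. On day 35 Ythdf3 differed by -0.66 (limma adjusted p = 0.018 in those mice alone). Chromosome 3 as a whole had 26 higher and 42 lower of 755 genes at an unadjusted p under 0.05 (9.01%), below the X chromosome (10.4%), chromosome 10 (10.1%) and chromosome 9 (9.04%), and it held 10 of the 21 genes with an adjusted p under 0.1.

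**Figure D2:**
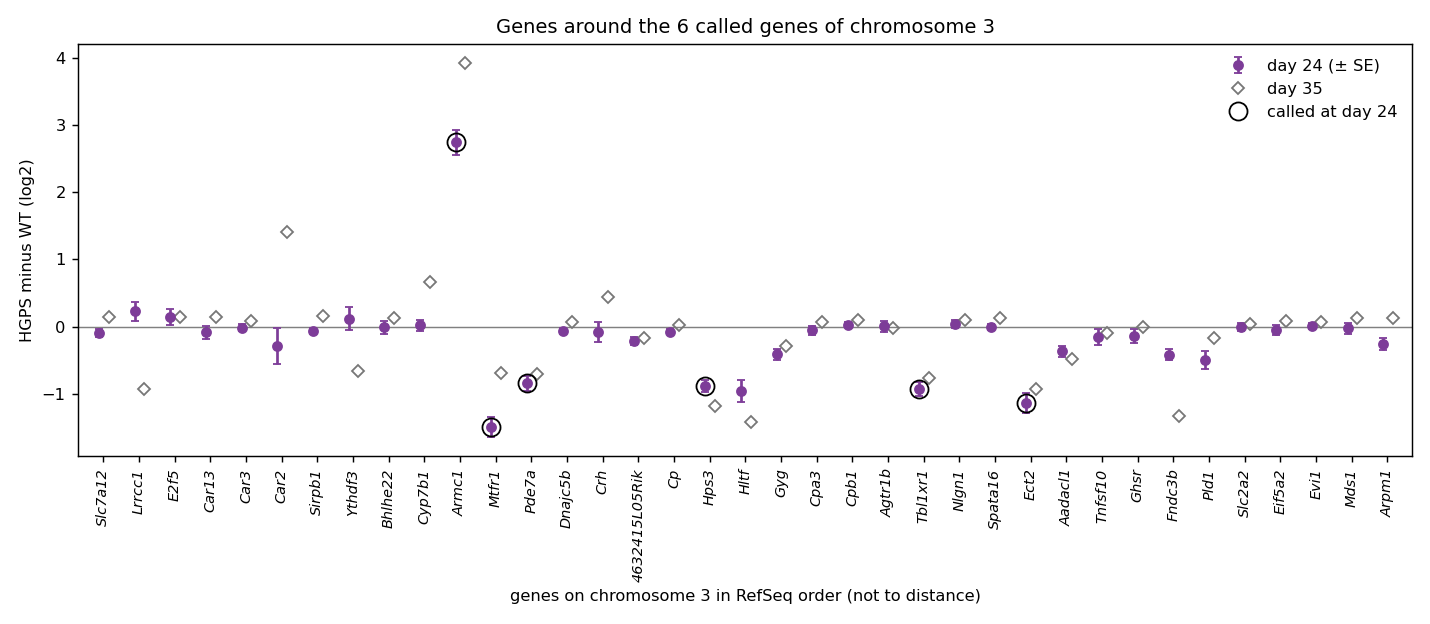
HGPS minus wild-type (WT) difference in log2 signal for 37 measured genes in their order along chromosome 3, on day 24 (filled, ± SE) and day 35 (open), with rings around the 6 that passed (n = 4 mice per group). Armc1 stands at 2.74 on day 24, and Mtfr1, Pde7a, Hps3, Tbl1xr1 and Ect2 stand between -1.5 and -0.84, with genes near 0 between them. Of the genes near 0, Crh, Nlgn1 and Spata16 had signals near the lower end of the scale.

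Gpc3, a glypican whose loss causes overgrowth in mice, was the X-linked gene that fell. It measured 3.89, 3.97, 4.05 and 3.78 in HGPS and 5.44, 5.17, 5.02 and 5.19 in wild-type. The groups were apart, and the difference was -1.28 ± 0.12 (SE, adjusted p = 0.000163), -1.38 in females and -1.19 in males. All 11 Gpc3 probe sets were lower in HGPS, and 5 of them passed. Where probe sets with a low mean signal were left out, the Gpc3 difference was -1.35 and did not pass (adjusted p = 0.176). Its nearest measured neighbours did not pass: Gpc4, another glypican, differed by 0.13 (limma adjusted p = 0.878), and A630012P03Rik had a limma adjusted p of 0.997. A630012P03Rik averaged 3.33 in both genotypes, near the lower end of the scale. On day 35 Gpc3 was 3.34, 3.04, 3.38 and 3.45 in HGPS and 4.62, 4.13, 4.23 and 4.27 in wild-type.

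H19, a long non-coding RNA made from the maternal allele, had the largest measured decrease. Its signal was 3.65, 4.13, 3.45 and 3.22 in HGPS and 7.2, 7.41, 5.28 and 6.59 in wild-type. Wild-type mice varied by over 2 units, and HGPS mice lay near the lower end of the scale. HGPS values of H19 overlapped the signals of endothelial markers such as Egfl7 (3.44 to 3.98) and Vwf (3.57 to 3.75), and whether they were above background was not tested, so no fold is given. The measured difference was -3.01 ± 0.44 (SE, adjusted p = 0.0122), and all 6 H19 probe sets were lower, with differences of -4.35 to -1.81. On day 35, H19 was 3.48, 3.3, 3.23 and 3.35 in HGPS and 7.68, 5.9, 6.42 and 5.71 in wild-type, which passed in those mice alone (adjusted p = 0.000401). The day 24 call was the least stable of the 8: it held in 2 of the 8 fits that left out 1 mouse, with an adjusted p of up to 0.0652. Igf2, the reciprocally imprinted neighbour, differed by -0.05 (limma adjusted p = 0.89), and Ins2, which encodes insulin, by -0.23 (limma adjusted p = 0.497). Igf2 averaged 3.51 in HGPS and 3.56 in wild-type, and Ins2 3.21 and 3.44 in that order. These means were as low as that of H19 in HGPS, so they cannot show whether either neighbour was unchanged.

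H19 is also the precursor of miR-675. The mature arms are printed because a lower H19 signal concerns the transcript that contains them, although these arrays did not measure either arm. RefSeq (GRCm38.p6) places them on the minus strand at chr7:142577112-142577133 and chr7:142577078-142577099, and capitals mark the seed, bases 2 to 8.
mmu-miR-675-5p: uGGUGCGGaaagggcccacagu
mmu-miR-675-3p: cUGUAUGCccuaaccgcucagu
The seeds of the arms differ from each other.

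All 8 genes had groups that did not overlap on either day and passed in the day 35 mice alone. Their direction on day 24 held in both sexes and within both prefixes, which follows from groups without overlap and is no further test. For the same reason the exact permutation p of the 4 against 4 mice was 0.0286 for each, the smallest this design allows. The change in size between the ages passed for Armc1 and Mtfr1. Over the 8 mice the genes that passed also tracked each other, as a description without a test: Tbl1xr1 and Pde7a correlated at r = 0.987, Hps3 and Pde7a at 0.987 and Mtfr1 and Tbl1xr1 at 0.981. The gene most like Armc1 was Mtap7d3 (r = -0.99), the one most like Gpc3 was Tbx18 (0.976), the one most like Ect2 was Cpn1 (0.992) and the one most like H19 was Sept2 (-0.985). Any gene with separate groups reaches a high r here, because 2 clusters of 4 mice make up the points.

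Below the threshold, the 10 higher and the 10 lower genes with the lowest p, among those with a mean signal of at least 5 and no overlap between the groups, form a list of trends. Their adjusted p ran between 0.0588 and 0.261 and their sizes between 0.25 and 1.26, and none is a called difference in the fit reported. With the replicate block, 6430527G18Rik, Pglyrp4 and Slco2b1 passed. Crip1, a small LIM domain protein, had 9.33, 9.25, 9.46 and 9.84 in HGPS and 8.65, 8.79, 8.25 and 8.17 in wild-type. Its groups were apart, with a difference of 1.00 ± 0.17 (SE, adjusted p = 0.0588) and of 0.84 on day 35. St5 (now Denn2b), an exchange factor for Rab13, differed by 0.44 (adjusted p = 0.0588) and Maob, which oxidises amines in the mitochondrial outer membrane, by 0.75 (adjusted p = 0.0764). Gstm5, a glutathione transferase, was at 8.7, 8.29, 9.46 and 9.24 in HGPS and at 8.1, 7.87, 7.82 and 7.72 in wild-type, and its difference of 1.04 on day 24 was 2.75 on day 35. The remaining higher trends were 6430527G18Rik (Irf2bpl), Fzd7, Slc27a1, Trak1, Bat2l (Prrc2b) and Ank3.

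Among the lower trends, Txnip, an inhibitor of thioredoxin and of glucose uptake, had 9.9, 10.12, 9.8 and 10.3 in HGPS and 10.66, 11.01, 11.65 and 11.51 in wild-type. The wild-type females were below the wild-type males, and the groups were apart (-1.17 ± 0.21, SE, adjusted p = 0.069). Hist1h1c, a linker histone, had 6.94, 6.85, 7.31 and 7.09 in HGPS and 8.61, 8.56, 7.9 and 8.15 in wild-type (-1.26 ± 0.23, SE, adjusted p = 0.079). Pglyrp4, an antibacterial peptidoglycan recognition protein of epithelia, differed by -1.18 ± 0.24 (SE, adjusted p = 0.13). Slco2b1, an organic anion transporter, had tight groups, with 4.37, 4.69, 4.5 and 4.68 in HGPS and 5.33, 5.16, 5.23 and 5.19 in wild-type. The Notch ligand Dll1 (-0.65), the fibulin gene Efemp1 (-0.67), Guca2a (-0.85), which encodes guanylin, D10Wsu102e (-0.38), Rg9mtd1 (now Trmt10c, -0.4) and Crlf3 (-0.44) made up the rest.

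Of the 20 trends, 15 kept their direction in the day 35 mice (6 of the 10 higher and 9 of the 10 lower) and 15 passed there alone, against 28.4% of all genes. Those that did both numbered 12. For 10 of the 20 the difference changed between the ages, against 24.3% of all genes. The day 24 difference that selected the trends enters this test, so the changes are not independent of the selection. The trends were also chosen for a mean signal of at least 5 and no overlap. Neither share of all genes is therefore a like comparison. Dll1, Efemp1 and Guca2a reached -2.94, -2.73 and -2.47 on day 35 and Txnip -2.27. By contrast Fzd7, a Wnt receptor, had 7.52, 7.31, 7.29 and 7.72 in HGPS and 7.02, 6.91, 6.89 and 6.72 in wild-type on day 24 (0.57), yet differed by -0.48 on day 35 (change of -1.05, adjusted p = 0.000185). Slc27a1, a fatty acid transporter, went the same way, from the higher side on day 24 (0.38) to the lower on day 35 (-0.64), as did 6430527G18Rik (0.59 and -0.44).

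**Figure D3:**
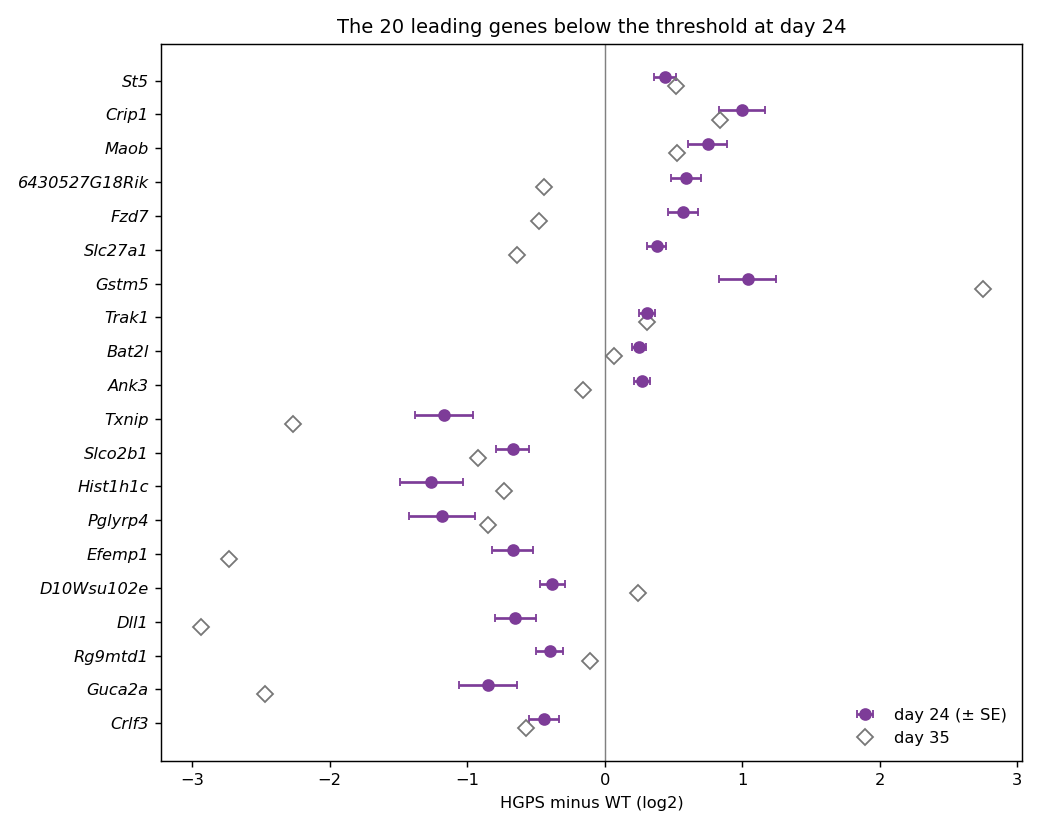
HGPS minus wild-type (WT) difference in log2 signal for the 10 higher and 10 lower trend genes, on day 24 (filled, ± SE) and day 35 (open), with n = 4 mice per group. On day 24 the sizes run between 0.25 and 1.26, and on day 35 Dll1, Efemp1 and Guca2a lie between -2.94 and -2.47 while Fzd7 and Slc27a1 lie below 0.

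Several large differences did not pass. Krt2, a keratin of the upper epidermis, differed by -1.52 with an SD of 0.71 in HGPS and 1.23 in wild-type (adjusted p = 0.463), and Postn, a matricellular protein, by -1.5 (adjusted p = 0.367). Igfl3, an insulin growth factor-like gene, averaged 3.57 ± 0.10 in HGPS and 4.62 ± 0.11 in wild-type (SD, n = 4 each). Gstp2, a glutathione transferase, differed by -1.61 with an SD of 0.15 in HGPS and 0.29 in wild-type. Both were tight and apart, and neither passed in the fit of all 16 mice (adjusted p = 0.292 for Igfl3 and 0.482 for Gstp2). Fitted on the 8 day 24 mice alone, 13 genes passed, and these included Igfl3, Gstp2, Maob, Slco2b1, Atp8a1 and Ccbp2 but not H19.

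At the level of single probe sets, 46 passed, 14 higher and 32 lower in HGPS, in 26 genes. Of the 8 genes above, 7 held 27 of them, none was in Tbl1xr1 (17 lower probe sets), and 19 other genes had 1 each. Chromosome 3 held 23. Ypel1 had the lowest p of these, with probe set 4374592 at 4.03 ± 0.10 in HGPS and 5.15 ± 0.12 in wild-type (SD, n = 4 each, adjusted p = 0.000331), but differed by 0.21 on day 35. In St5 probe set 4430614 averaged 4.97 ± 0.22 in HGPS and 3.79 ± 0.17 in wild-type and was 0.99 higher on day 35. Mmp3, a matrix metalloproteinase, had probe set 4696602 at 3.56 ± 0.15 in HGPS and 5.41 ± 0.57 in wild-type (-1.85), against -0.67 on day 35. The Slc2a3 probe set 4913777, in a glucose transporter gene, differed by -3.02 on day 24 and by -0.02 on day 35. Probe sets of Pld1 (-1.41) and Gyg (-1.36), both in the stretch of chromosome 3, passed as well.

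Probe sets were also tested for departure from their own gene's mean, a measure of unequal change along a transcript such as a change of exon use. Of 178805 probe sets, 19 (0.0106%) passed, in 12 genes, and 7 of them belonged to Armc1. Relative to the gene mean the 2 lower Armc1 probe sets departed by -4.96 and -4.65. Gpc3 had 2 probe sets that passed (1.17 and 0.98), Hps3 had 1 (-1.42) and H19 had 1 (-1.35). All 11 Gpc3 probe sets were lower in HGPS, so a departure above 0 there means a smaller fall. A probe set near the lower end of the scale can depart in this way without a change of exon use. The study left differentially expressed genes out of its splicing test because of reported false positives, and the departures here were tested without that step. Outside the 8 genes, Ypel1 (-0.91), Reps2 (-1.02), Mtap7 (1.58), Mmp3 (-1.10), Krt72 (-1.11), Slc2a3 (-2.76), Anpep (-2.11) and Cep250 (-1.74) each had 1 departing probe set. On day 35 each of these was smaller in size, with adjusted p-values of 0.20 (Mtap7) or above. No isoform was measured directly. With the replicate block, 28 probe sets and 4 genes with a departure passed, in place of 46 and 12.

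**Figure D4:**
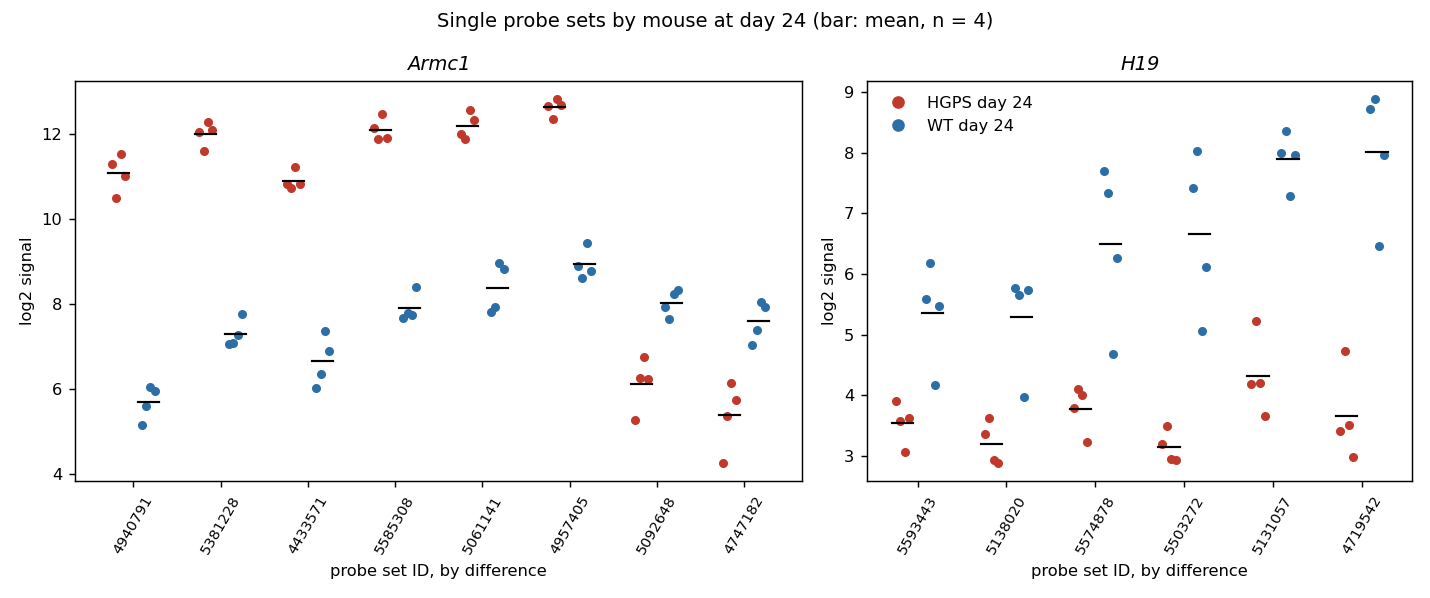
Log2 signal of each probe set of Armc1 (left) and H19 (right) on day 24, 1 point per mouse, HGPS (red) left of wild-type (WT, blue), with a bar for the mean of 4 mice. Armc1 has 6 probe sets that are higher in HGPS by 3.69 to 5.39 and 2 that are lower, while all 6 of H19 are lower.

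Gene groups chosen for the epidermis and for progeria were read against the share of all genes at an unadjusted p under 0.05, 7.2%. In the nuclear lamina and prelamin A group, 3 of 23 genes were at that level, Lmna (0.22) and Tor1aip1 (0.17) above 0 and Tmpo (-0.23) below. The spinous differentiation (17 genes), cornified envelope (22 genes) and cell division (34 genes) groups had none, with medians of 0.03, 0.05 and -0.02. These medians had opposite signs in the sexes. Cell division had 0.16 in females and -0.21 in males, with 7 and 30 of the 34 genes below 0. Spinous differentiation had -0.15 in females and 0.13 in males, and the cornified envelope -0.08 and 0.24 in that order, and these differences between the sexes were not tested for the groups. Ect2 was not on the cell division list. In the spliceosome group 2 of 61 genes were at that level, Rbm9 (0.18) and Rbm35a (0.16), with a median of 0.07. Of the 61, 43 were above 0, as were 6077 of all 15830 genes. The group median was 0.1 in females and 0.01 in males, and neither the tilt nor this difference was tested. The p53 and DNA damage group had 3 of 32, namely Trp53bp1 (0.27), Gadd45g (-0.68) and Aen (-0.26). None of the genes in these groups passed after adjustment.

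The heparan sulphate group, to which Gpc3 belongs, had 7 of 27 genes at an unadjusted p under 0.05 (25.9%), 6 of them higher in HGPS. Glce, an epimerase that modifies the heparan chain, had 7.18, 7.05, 6.98 and 7.02 in HGPS and 6.69, 6.63, 6.6 and 6.96 in wild-type (0.34 ± 0.11, SE, adjusted p = 0.422). Its groups were apart by a narrow margin, because wild-type replicate 4 was close to the HGPS mice. The chain-building enzymes Extl3 (0.29), Extl1 (0.29) and Ndst1 (0.19) and the core proteins Hspg2 (0.34), known as perlecan, and Col18a1 (0.31) were the other 5. On day 35 Hspg2 (0.46) and Ndst1 (0.43) were above 0, Extl1 was at 0.01, and Glce, Extl3 and Col18a1 were below 0. The list was chosen with the Gpc3 result known.

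The hair follicle stem cell group had 5 of 16 genes at that level (31.2%). Cd34, a surface marker of bulge stem cells, had 7.05, 6.5, 6.65 and 6.68 in HGPS and 6.36, 6.13, 5.99 and 6.47 in wild-type (0.48 ± 0.15, SE, adjusted p = 0.401). The groups were just apart on day 24, whereas on day 35 Cd34 differed by -2.36, and the change of -2.84 passed (adjusted p = 5.38e-07). Tbx1 (0.32), a transcription factor of these cells, and Tcf7l2 (0.31), a Wnt effector, were also higher without overlap and then below 0 on day 35, with changes between the ages that passed. Postn (-1.5) and Fgf18 (-0.43), a growth factor of resting follicles, were lower with overlapping groups. The basal keratinocyte group of 18 genes had a median of 0.13 on day 24 and of -0.89 on day 35. Its genes at an unadjusted p under 0.05 on day 24 were Cd44 (0.39), Krt14 (0.23) and Egfr (0.2), and Egfr differed by -0.47 on day 35.

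Hair shaft and root sheath genes of anagen follicles had the lowest median of any pathway group, -0.45 over 32 genes, with 29 below 0. Of all 15830 genes, 9753 were below 0. Averaged over the 32 genes, the signal was 4.84 and 4.45 in HGPS females, 5.01 and 5.03 in wild-type females, 5.93 and 5.32 in HGPS males, and 6.47 and 6.06 in wild-type males. Sex separated the mice more than genotype did, with males above females for 29 of the 32 genes and by a median of 0.98. Within sex the median difference of HGPS from wild-type was -0.25 in females and -0.66 in males. None of the 32 genes had groups without overlap, and 4 were lower at an unadjusted p under 0.05 (12.5%), namely Krt32 (-0.34), Krt82 (-0.37), Msx1 (-0.28) and Krt25 (-1.21). Krt35, a hair cortex keratin, was 2.50 higher in males than in females (adjusted p = 0.0218) and differed by -1.5 between the genotypes (adjusted p = 0.692). In such bulk samples fewer cells of a type and less RNA per cell cannot be told apart. A difference of genotype effect between the sexes passed for 1 of 15830 genes (0.00632%), 2810417H13Rik (now Pclaf), which encodes a PCNA-binding factor and differed by 0.69 in females and -0.89 in males (adjusted p = 0.0242).

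The inflammation group had 6 of 46 genes at an unadjusted p under 0.05, 2 higher and 4 lower. Krt6a, a keratin of stressed epidermis and of the follicle, had 7.64, 7.11, 8.14 and 7.84 in HGPS and 8.25, 8.6, 8.04 and 8.8 in wild-type (-0.74 ± 0.23, SE, adjusted p = 0.389). Ccl20, which attracts Langerhans cell precursors and T cells, had 7.11, 7.77, 7.72 and 7.86 in HGPS and 8.44, 8.65, 7.51 and 8.57 in wild-type (-0.68 ± 0.28, SE, adjusted p = 0.611). Each gene had overlapping groups, through wild-type replicate 3. Both were on the other side on day 35, by 2.16 and 2.77, and the changes of 2.90 for Krt6a and 3.45 for Ccl20 passed (adjusted p = 1.64e-05 and 2.53e-05). The interferon-induced chemokine Cxcl10 (-0.49) and Cxcl12 (-0.39) were lower, and Stat3 (0.21) was higher. Tslp, an epithelial cytokine of itch and allergy, had 5.02, 6.23, 5.57 and 4.84 in HGPS and 4.83, 4.84, 4.02 and 4.72 in wild-type, so that its lowest HGPS mouse met the wild-type range, and it differed by 0.81 (adjusted p = 0.544).

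In the circadian clock group 3 of 18 genes were higher at an unadjusted p under 0.05. Dbp, a clock output factor, had 6.6, 5.68, 6.35 and 6.44 in HGPS and 5.18, 5.31, 5.53 and 5.95 in wild-type. HGPS replicate 2 fell within the wild-type range, and the difference of 0.78 ± 0.21 (SE, adjusted p = 0.306) was -1.56 on day 35. Tef (0.21) and Per3 (0.22) were the others, at -0.72 and -0.54 on day 35. The hour at which each mouse was killed was not given. In the Wnt group, 4 of 46 genes were at that level, of which Tbl1xr1 passed, Fzd7 (0.57) and Tcf7l2 (0.31) were higher and Nkd2 (-0.42), an inhibitor of Dishevelled, was lower. Of 34 collagen and matrix genes 6 were at that level, with Mmp3 (-0.75, adjusted p = 0.0764), Fn1 (-0.32), Dcn (-1.41) and Col6a2 (-0.16) lower and Col12a1 (0.35) and Timp3 (0.46) higher. Of 15 sebaceous gland genes, Scd1 (0.35), a fatty acid desaturase, and Adfp (0.39), a lipid droplet coat protein, were higher, and Scd3 had 4.84, 4.7, 5.77 and 5.41 in HGPS and 3.56, 3.78, 4.67 and 3.73 in wild-type (limma adjusted p = 0.729).

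**Figure D5:**
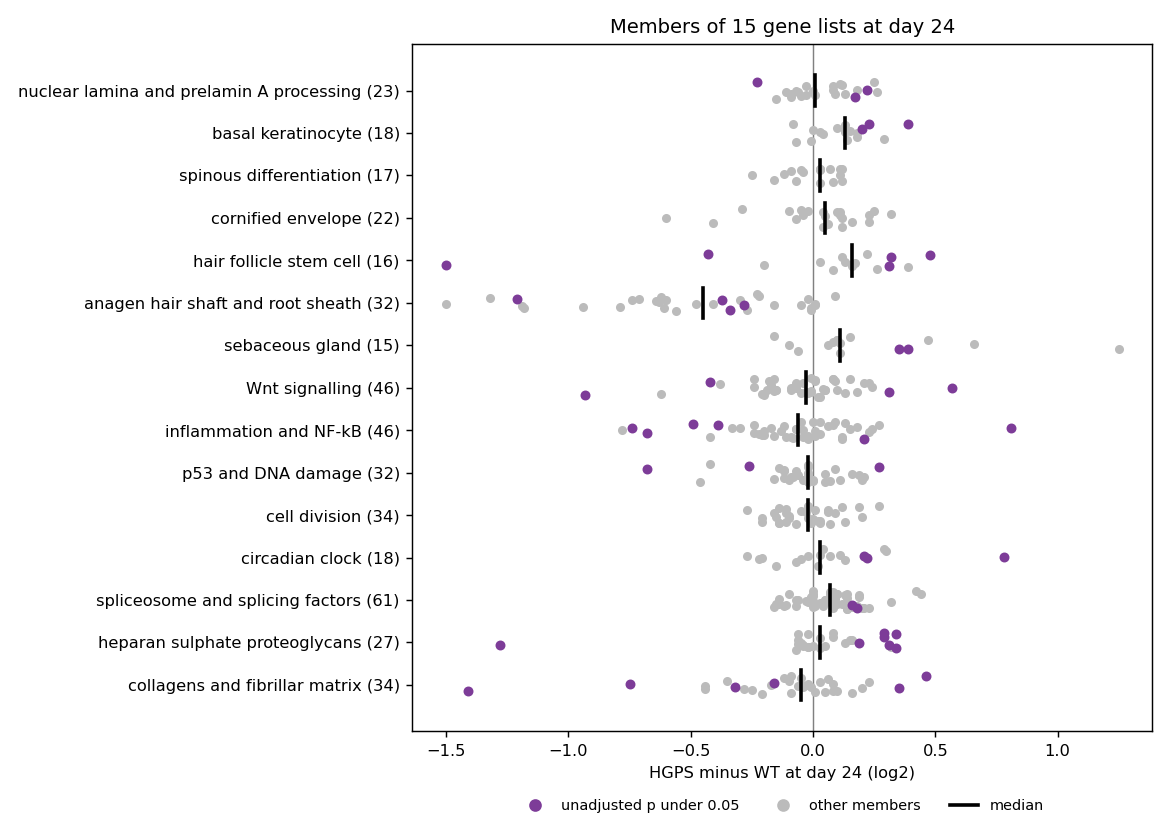
HGPS minus wild-type (WT) difference in log2 signal on day 24 for each measured gene of 15 groups (1 point per gene, n = 4 mice per genotype, vertical scatter only for legibility), with genes at an unadjusted p under 0.05 in purple and the group median as a black bar. The anagen group has its median at -0.45, and the median over all genes is -0.025.

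Markers of other cell types were summed on the linear scale to show what the samples held. Keratinocyte markers gave 45500 to 49000 in HGPS and 44100 to 46800 in wild-type, so the labelled cell type was borne out by its own markers in every mouse. Fibroblast markers gave 935 to 1430 in HGPS and 1100 to 1380 in wild-type, and 11 of 12 were below 0, with Dcn, a collagen-binding proteoglycan, at -1.41 and overlapping groups. Langerhans cell and macrophage markers gave 954 to 1310 in HGPS and 1040 to 1720 in wild-type, and 10 of 12 were below 0. These counts below 0 stand beside 9753 of all 15830 genes. T cell markers gave 1050 to 1820 in HGPS and 1260 to 1740 in wild-type. Melanocyte markers gave 153 to 289 in HGPS and 192 to 298 in wild-type, beside the decrease of Hps3. Adipocyte markers were at 127 to 137 in HGPS and 142 to 159 in wild-type, sums that did not overlap. No single adipocyte marker had groups apart. Markers such as Adipoq (3.09 to 3.25) and Lep (3.13 to 3.39) were near the lower end of the scale, while Fabp4 ran from 3.03 to 5.19. How far the adipocyte sums reflect Fabp4 alone was not tested. In the fit reported no marker gene of any type passed, while with the replicate block Dcn did, and the part of these cells in the results above was not tested.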

How the data were processed

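The deposited values were log2 signals of Affymetrix Mouse Exon 1.0 ST core probe sets, 1 array per mouse. Per the labels and the study's methods, the authors made them by GC-adjusted RMA background correction, quantile normalisation and median polish in Partek, annotated on mm9. Array number limits the precision, and no detection call was used. The table held 194293 probe sets. Those with 1 gene symbol (179614) were averaged into 15830 genes (median of 9 probe sets a gene), and 14679 with several or no symbols were tested singly only, of which none passed in limma and 789 had an unadjusted p under 0.05. Of the symbols, 13745 were current in RefSeq, 2046 were synonyms, 34 were ambiguous and 5 did not match.

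Gene means, single probe sets and departures (probe set minus gene mean) were each fitted with limma 3.58.1 in R 4.3.3 (lmFit and eBayes) over all 16 mice, with genotype by age groups, and the day 24 contrast was adjusted over all features by Benjamini-Hochberg. A gene passed at an adjusted p under 0.05. The scripts were tested on simulated data.

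Genes were named by rule: Lmna, Krt5, Krt14, all genes that passed, the 20 trends, 10 probe sets and 10 departures with the lowest p (at most 1 a gene), neighbours of genes that passed, up to 4 genes a list and the 3 genes most correlated with each. Genes of large size that did not pass, the other list genes at an unadjusted p under 0.05 and Scd3, Krt35 and 2810417H13Rik were named after their values were seen. The members and lists were chosen with earlier results of these data known.

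Mice of the same replicate number deviated together (correlations of 0.184 to 0.446), which met the criterion of over 0.1 in every pair for fitting a block. The numbers coincide with sex, and other pairs of the same sex were within this range, while pairs of the other sex had -0.426 to -0.153. The criterion therefore cannot tell a pairing from shared sex. In replicates 1 and 4 the HGPS and wild-type mice also carried different prefixes. Alternatives covered the mice fitted, sex, prefix, the block, scaling, dim probe sets, the gene summary, the variance model and the study's ANOVA.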

Additional observations from a re-analysis of the deposited data

Results flagged for a closer look

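Of 130 groups of 4 mice checked over 65 genes, 7 had 1 mouse apart from the other 3, close to the 1 in 20 that chance flags. Krt14 was 11.45 in wild-type replicate 3 against 11.75 to 11.79 in the others. Crlf3 was 6.46 in wild-type replicate 4 (6.71 to 6.74 in the others), Tslp 4.02 in wild-type replicate 3 (4.72 to 4.84) and Aen 5.75 in wild-type replicate 2 (5.96 to 6). Tmpo was 7.86 in HGPS replicate 4 (8.11 to 8.13), Rbm9 6.67 in HGPS replicate 4 (6.9 to 6.94) and Tef 6.1 in HGPS replicate 2 (6.34 to 6.36).

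For 30 genes the HGPS minus wild-type difference changed between the ages at an adjusted p under 0.05 in limma, and the values here are the day 35 difference minus the day 24 difference. Those named for a low p on day 24, such as Cd34, Krt6a and Dbp, were selected on a difference that enters this test. Genes with the same sign on both days were Armc1 (1.19), Mtfr1 (0.81), Gstm5 (1.71), Txnip (-1.09), Efemp1 (-2.06), Dll1 (-2.28) and Guca2a (-1.62). Genes above 0 on day 24 and below 0 on day 35 were 6430527G18Rik (-1.03), Fzd7 (-1.05), Slc27a1 (-1.02), Ank3 (-0.44), Krt5 (-0.44), Krt14 (-0.37), Egfr (-0.67) and Tslp (-1.3). The same held for the follicle stem cell genes Tbx1 (-0.56), Cd34 (-2.84) and Tcf7l2 (-0.66), the clock genes Dbp (-2.34), Tef (-0.92) and Per3 (-0.76), and Trp53bp1 (-0.6). It held also for the heparan sulphate genes Glce (-0.59) and Extl3 (-0.48) and the matrix genes Col12a1 (-1.45) and Timp3 (-2.11). Genes below 0 on day 24 and above 0 on day 35 were D10Wsu102e (0.61), Krt6a (2.9), Ccl20 (3.45) and Aen (0.68). Sex was balanced on day 24 and not on day 35, and over all genes 3863 changed between the ages once sex was a covariate, against 3839 without it.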

How the results depend on the processing

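None of the 8 genes that passed changed direction under the alternatives run. Against 8 genes in the fit reported, the gene count was 13 in the 8 day 24 mice alone, 15 with sex as a covariate, 21 with sex in the day 24 mice alone (an alternative chosen after seeing the data), 15 without dim probe sets, 5 with a 2-fold minimum and 21 at an adjusted p under 0.1. Leaving out 1 mouse gave 7 to 14 genes, with 14 without HGPS replicate 2. Of 19 alternatives, Armc1, Mtfr1, Hps3 and Pde7a passed in all 19, Gpc3 and Tbl1xr1 in 18, Ect2 in 17 and H19 in 9. Tbl1xr1, Ect2 and H19 were lost with the median of the probe sets (adjusted p = 0.0955 each), H19 also in the day 24 mice alone (0.0866), with prefix (0.0615) and with the methods' ANOVA (0.0871). The cause was not tested.

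Single probe sets numbered 46. They were 11 in the day 24 mice alone, 10 with prefix, 17 with sex in the day 24 mice alone, 85 with a trended robust variance and 25 to 43 when 1 mouse was left out. Genes with a departure numbered 12. They were 1 in the day 24 mice alone, 1 with prefix, 2 with sex in the day 24 mice alone, 5 without dim probe sets, 4 to 11 with 1 mouse left out, 472 in the methods' splicing ANOVA and 344 after its removal of genes with an expression p under 0.05. The number of genes that changed between the ages, 3839, ran between 3102 and 3836 with 1 mouse left out.

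With the replicate block, 19 genes, 28 probe sets and 4 genes with a departure passed, and 4162 genes changed between the ages. It ended none of the 8 gene calls. Of 96 list medians recomputed, 91 moved by less than the spread between mice, and 5 moved by more. Signals near the lower end of the scale, as for H19 in HGPS, limit how well their differences are measured.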
